A study of Homo sapiens with 8 samples.

Results

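The DNA replication genes described here are 45 human genes chosen by name for their part in copying the genome, from the recognition of replication origins to the assembly of chromatin behind the fork. The choice was made with earlier results of these data known. The genes were looked up by gene symbol among those with a splicing event in RNA-seq of U2OS cells. Of the 45 genes, 42 had an event in whole-cell RNA, among 11691 genes with an event there, and 41 had an event in cytoplasmic RNA, among 9926. CDT1, FEN1 and GINS4 had no event in whole-cell RNA, and CDC6, FEN1, GINS4 and PRIM2 had none in cytoplasmic RNA. The members held 478 of the 89379 whole-cell events and 195 of the 43559 cytoplasmic events.

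U2OS is a human osteosarcoma cell line. The cells were transfected for 48 h with 20 nM of an siRNA against EGFP, which human cells do not carry, or with CHERP #2 siRNA, the only siRNA against CHERP among these samples. CHERP is a nuclear RNA-binding protein that associates with the U2 snRNP, and the study asked how its loss changes splicing. RNA was taken from whole cells or from the cytoplasm (the supernatant of a detergent lysate), and stranded mRNA libraries were made from 2 biological samples per siRNA and fraction, 8 in all. No group carried another genetic change or treatment.

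The replication machinery is built in steps. The origin recognition complex (ORC), with CDC6 and CDT1, loads the MCM2-7 ring onto DNA in G1 phase, and CDC45 and the GINS complex turn that ring into an active helicase at the start of S phase. DNA polymerase alpha-primase then starts each strand, polymerases epsilon and delta extend it on the sliding clamp PCNA, and many of these genes are transcribed under the control of E2F factors when cells enter the cycle.

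Abundance was read from the event reads, since these are the values given for each library. For each gene, reads were divided by the effective length of the event form they lay on and summed over its skipped exon, alternative 5' and alternative 3' splice site events, and libraries were scaled by median ratios. The resulting value, in reads per base, depends on how many events a gene has, so it was compared between libraries and not between genes. Log2 fold changes are given for CHERP siRNA over EGFP siRNA, on the log2(value + 0.01) scale, with adjusted p from limma over all genes of the fraction and a threshold of 0.05. With 2 libraries per group, these p-values rest on a spread shared among genes. Where a library was left out, its group held a single library, whose spread was not estimated. Calls gained or lost in that way show only a dependence on single libraries. In bulk RNA, fewer cells of one state and less RNA per cell cannot be told apart.

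The libraries held between 29409956 and 35664568 event reads for whole cells and between 5370756 and 6580099 for the cytoplasm. The targeted gene, CHERP, had 103 and 77 reads in the whole-cell EGFP siRNA libraries and 3 and 10 in the CHERP siRNA libraries, a log2 fold change of -3.46 (SE 0.57, limma adjusted p = 0.00146). In the cytoplasm it had 31 and 21 against 3 and 4 reads, which is under the filter of 20 reads on average, and without that filter its log2 fold change was -2.66 (SE 0.38, adjusted p = 4.04e-05). Among markers of the line, VIM and FN1 had at least 687 reads in every library and RUNX2 had 16 to 20 with EGFP siRNA and 0 to 6 with CHERP siRNA, while COL1A1, COL1A2 and SPARC had no event and were not measured here. The blood markers PTPRC and CD3E and the epithelial marker EPCAM had no event either, and CDH1, another epithelial marker, had 1 to 2 reads with EGFP siRNA and 8 to 22 with CHERP siRNA. KRT8, an epithelial keratin, was read in every library, with 19315 and 15511 reads against 12712 and 12305 in whole cells and 720 and 687 against 577 and 445 in the cytoplasm.

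Most DNA replication genes fell after CHERP siRNA. In whole-cell RNA, 29 of the 42 measured members were lower, 1 was higher and 12 did not pass the test, where 18.4% of the 9660 genes tested were lower and 18.8% were higher. In cytoplasmic RNA, 32 of 41 were lower, none was higher and 9 did not pass, where 23.6% of the 7293 genes tested were lower and 24.6% were higher. The median log2 fold change of the members was -0.88 in whole cells and -0.96 in the cytoplasm, against medians of 0.0055 and -0.0082 over all genes, whose lower quartiles lay at -0.40 and -0.43. All members with an event passed the filter on reads.

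**Figure D1:**
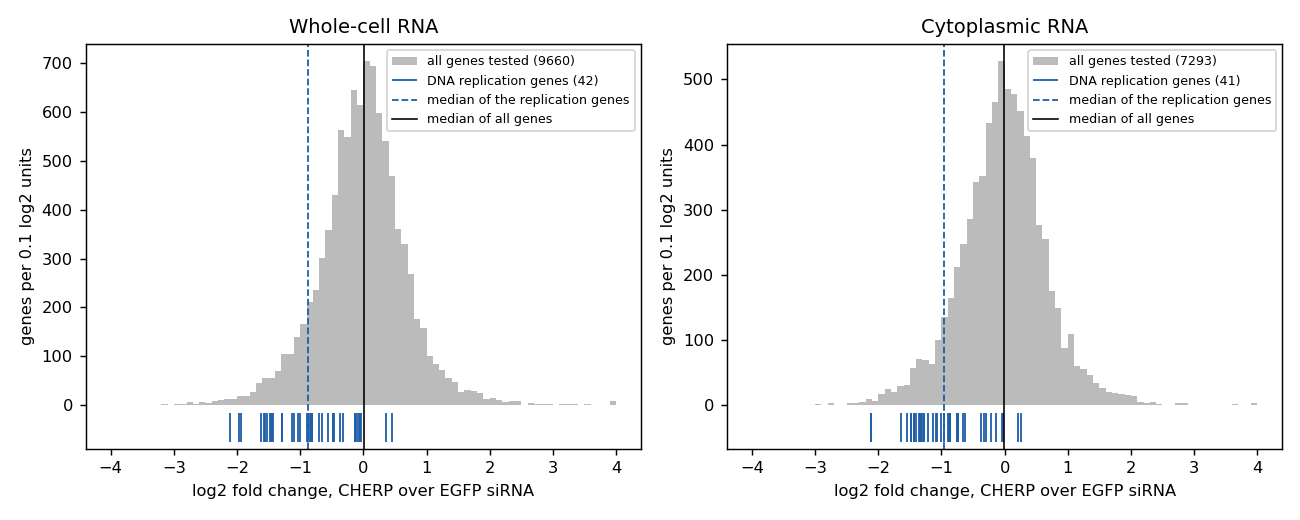
Histograms of the log2 fold change (CHERP siRNA over EGFP siRNA) of all genes tested, 9660 in whole-cell and 7293 in cytoplasmic RNA, with values beyond 4 in either direction drawn at the edge. Blue ticks below the axis mark the 42 and 41 DNA replication genes, whose medians (dashed lines, -0.88 and -0.96) lie to the left of the median of all genes (solid lines).

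The separation was also visible library by library. Both CHERP siRNA libraries lay below both EGFP siRNA libraries for 36 of 42 members in whole cells and 35 of 41 in the cytoplasm, where 35.1% and 37.5% of all genes did so. Taken event by event among events of at least 20 reads, 257 of 345 whole-cell events of the members (74.5%) were below in this sense, against 33.1% of all such events, and 22 were above. In the cytoplasm 105 of 131 (80.2%) were below, against 33.2%, and 5 were above. The share of all events that were above was not counted. Counts of events above, here and for single genes further on, therefore have no such comparison. Events of a gene share its reads, so these counts are not independent of the counts by gene.

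**Figure D2:**
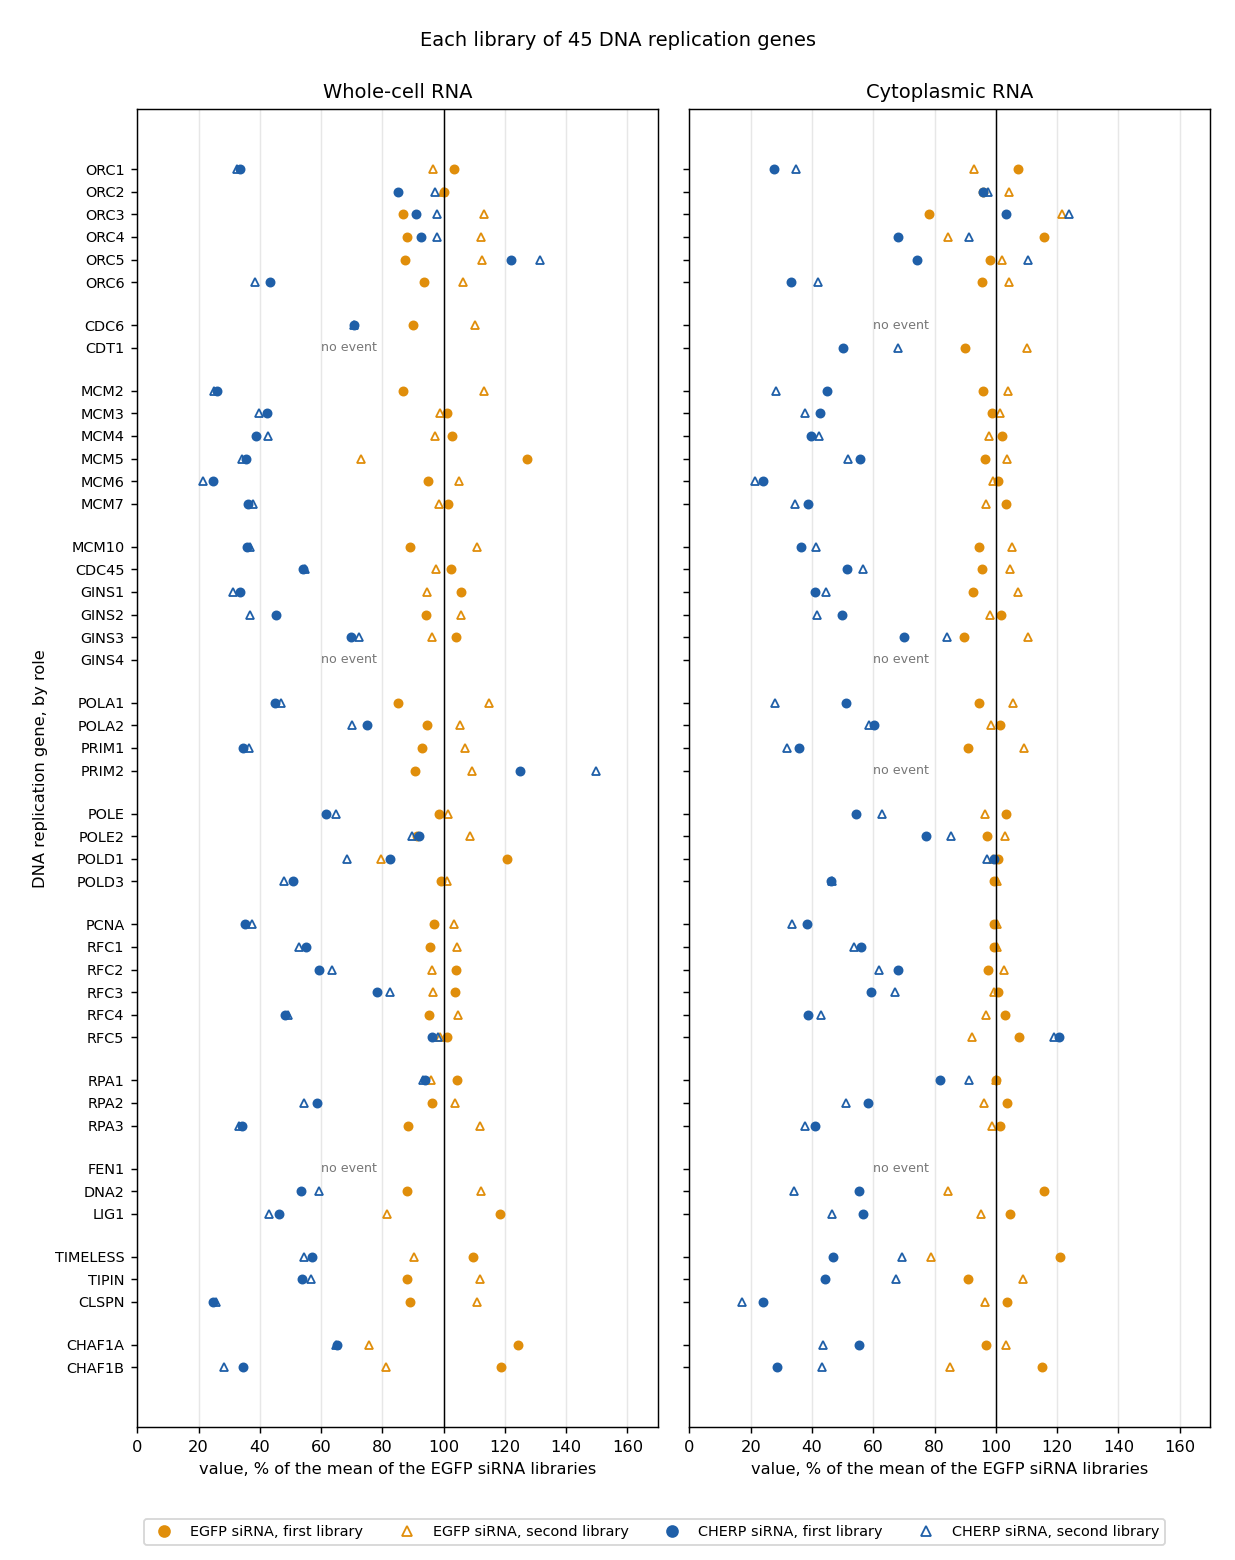
Value of each DNA replication gene in each library, as a percentage of the mean of the EGFP siRNA libraries of that fraction (vertical line at 100), with genes grouped by role. Orange symbols are EGFP siRNA and blue symbols CHERP siRNA libraries, and for 36 of 42 genes in whole cells both blue symbols lie left of both orange symbols.

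**Figure D3:**
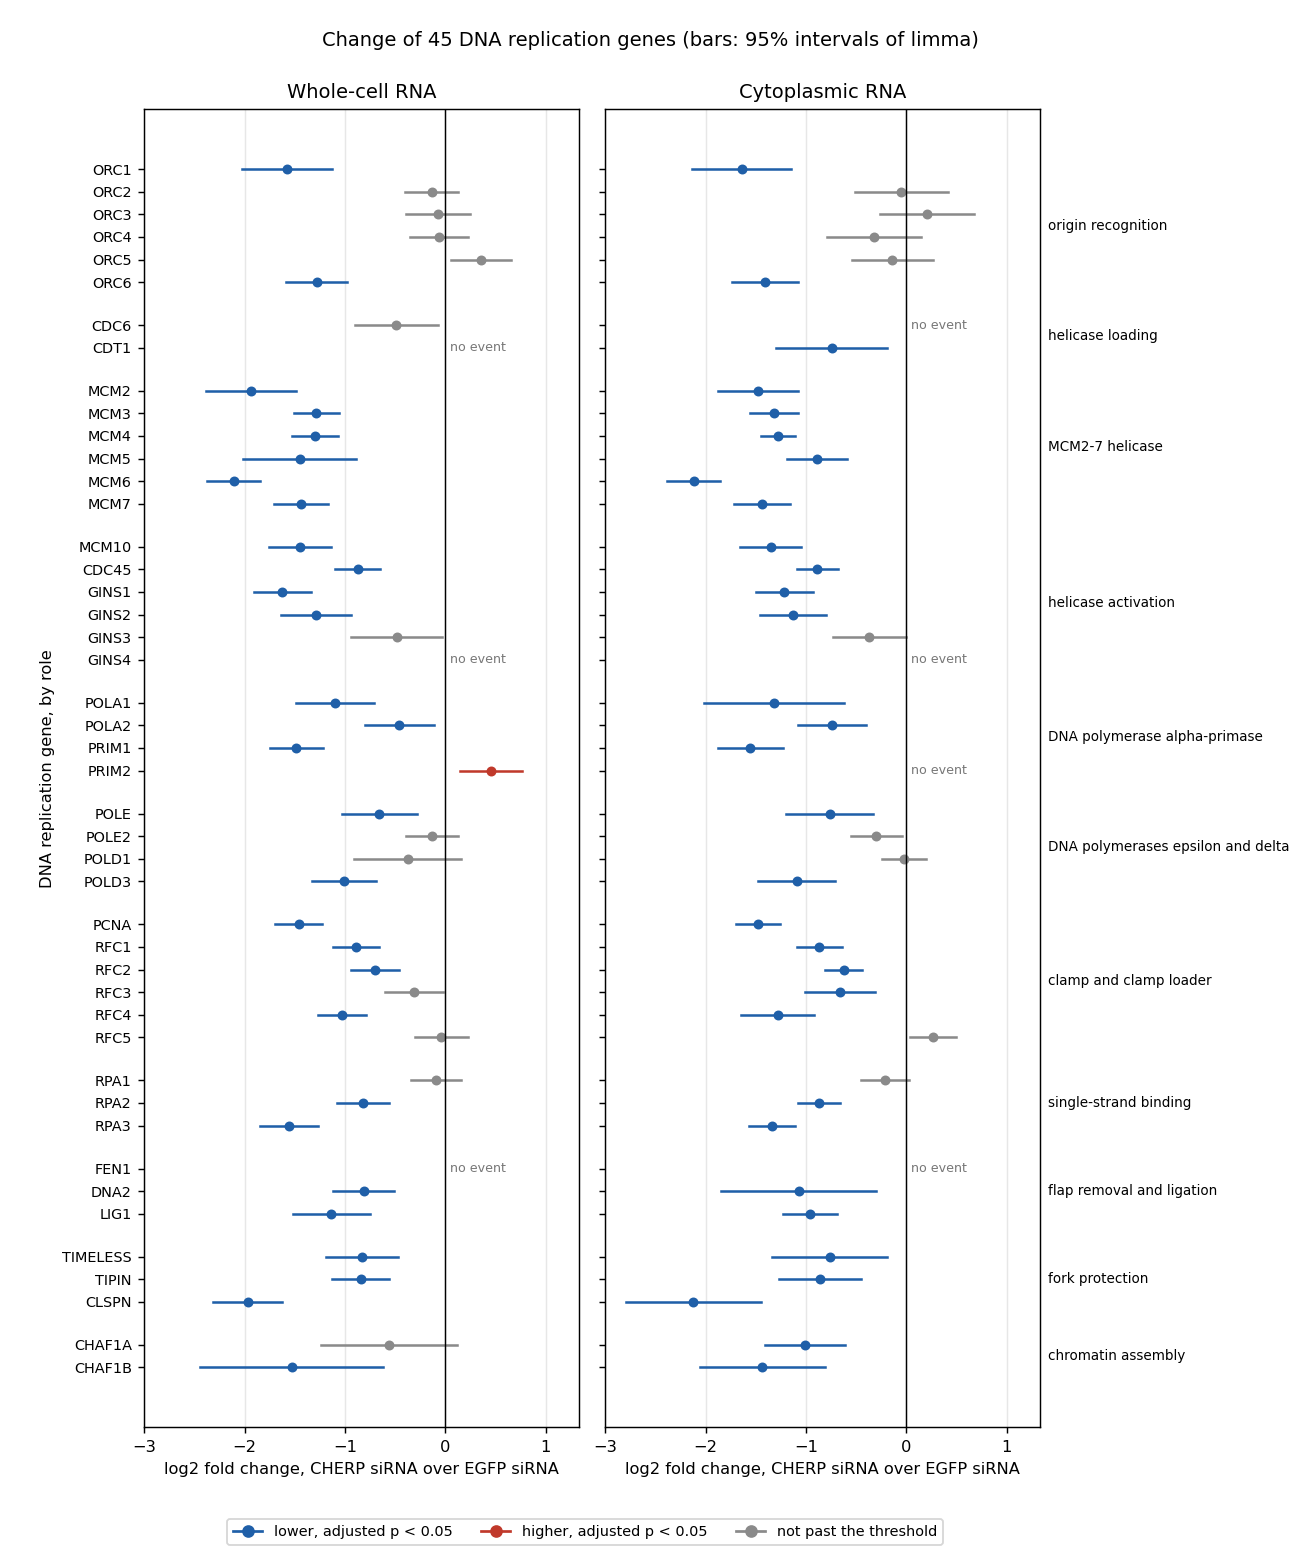
Log2 fold change of each DNA replication gene with its 95% interval from limma, in whole-cell (left) and cytoplasmic (right) RNA, grouped by role. The 6 MCM2-7 genes are lower in both fractions, while ORC2 to ORC5, GINS3, RPA1, RFC5, POLD1 and POLE2 are grey in both, meaning that they did not pass the threshold.

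The MCM2-7 helicase genes all fell in both fractions, with a median log2 fold change of -1.45 in whole cells and -1.38 in the cytoplasm. MCM6, a subunit of the ring, changed most in whole cells, with values of 22.0 and 24.4 reads per base in the EGFP siRNA libraries and 5.75 and 5.00 in the CHERP siRNA libraries. This was a 4.31-fold decrease (log2 fold change -2.11, SE 0.12, adjusted p = 6.09e-06), and the 2 groups were far apart. In the cytoplasm MCM6 went from 3.88 and 3.82 to 0.929 and 0.828 (log2 fold change -2.12, SE 0.12, adjusted p = 1.56e-07).

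MCM2 was measured by 1 event in whole cells, with values of 1.85 and 2.41 against 0.555 and 0.533 (log2 fold change -1.94, SE 0.20, adjusted p = 0.000109). Its cytoplasmic values were 2.93 and 3.18 against 1.38 and 0.862 (log2 fold change -1.48, SE 0.18), so that the CHERP siRNA libraries differed more from each other there. MCM5 also rested on 1 event in each fraction. Its whole-cell values, 2.80 and 1.61 against 0.782 and 0.755 (log2 fold change -1.45, SE 0.25, adjusted p = 0.00178), did not overlap although the EGFP siRNA libraries lay apart, and its cytoplasmic log2 fold change was -0.89.

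MCM7 had whole-cell values of 8.48 and 8.22 against 3.01 and 3.15 (log2 fold change -1.44, SE 0.12). In the cytoplasm its values of 2.82 and 2.64 against 1.06 and 0.944 gave the same log2 fold change of -1.44. MCM4, at 34.6 and 32.6 against 13.0 and 14.4 in whole cells and 11.3 and 10.9 against 4.41 and 4.71 in the cytoplasm, had log2 fold changes of -1.30 and -1.28. Thus for these subunits the decrease in the cytoplasm was close to that in whole cells. MCM3 completed the ring with 26.3 and 25.7 against 11.0 and 10.3 in whole cells (log2 fold change -1.29) and 3.93 and 4.03 against 1.69 and 1.50 in the cytoplasm (-1.31).

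The helicase is switched on by a second set of genes, and 4 of the 5 measured members of that set fell in both fractions. GINS1, a subunit of the GINS complex, had whole-cell values of 8.63 and 7.71 against 2.74 and 2.54 (log2 fold change -1.62, SE 0.13, adjusted p = 2.54e-05) over 20 events. MCM10, a factor needed to start unwinding, had 8.00 and 9.94 against 3.23 and 3.30 in whole cells (log2 fold change -1.45) and 2.06 and 2.29 against 0.794 and 0.900 in the cytoplasm (-1.35). GINS2 had 4.08 and 4.57 against 1.96 and 1.59 in whole cells (log2 fold change -1.29). CDC45, the partner of GINS in the active helicase, fell with log2 fold changes of -0.87 and -0.89. GINS3 did not pass the test in either fraction, with -0.49 (adjusted p = 0.0861) and -0.37 (adjusted p = 0.0852), although both its CHERP siRNA libraries lay below both EGFP siRNA libraries. In the cytoplasm its log2 fold change was -0.53 without the first EGFP siRNA library and -0.49 without the second CHERP siRNA library. GINS4 had no event.

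Origin recognition genes split by subunit. ORC1 and ORC6 fell, and ORC2, ORC3, ORC4 and ORC5 did not pass the test in either fraction. ORC1 is an ATP-binding subunit that is known to be turned over within each cell cycle. It had whole-cell values of 1.41 and 1.31 against 0.455 and 0.443 (log2 fold change -1.58, SE 0.20, limma adjusted p = 0.000335). Its cytoplasmic values were 0.760 and 0.658 against 0.196 and 0.247 (-1.64, SE 0.23, limma adjusted p = 0.000118). ORC6, the smallest subunit, had 2.06 and 2.26 against 0.718 and 0.908 in the cytoplasm (log2 fold change -1.41) and a whole-cell log2 fold change of -1.28. The core subunits ORC2 to ORC5 ranged from -0.14 to 0.35 in whole cells and from -0.32 to 0.21 in the cytoplasm. ORC5 was the highest of them in whole cells (0.35, SE 0.13, limma adjusted p = 0.0637), with 0 of its 17 events below and 10 above. Without the second EGFP siRNA library its log2 fold change was 0.53. Without the first EGFP siRNA library ORC3 and ORC4 were at -0.28 and -0.25, and they had positive values without the second.

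Of the helicase loaders, CDC6 was measured in whole cells only and CDT1 in the cytoplasm only. CDC6 had a log2 fold change of -0.49 (SE 0.18, limma adjusted p = 0.0635), which did not pass the threshold. Its log2 fold change was -0.65 without the first EGFP siRNA library. CDT1, whose protein is removed in S phase, fell by 0.74 on the log2 scale (SE 0.25, adjusted p = 0.0306), and it lost the call when the second EGFP siRNA library (adjusted p = 0.157) or the first CHERP siRNA library (adjusted p = 0.168) was left out.

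The DNA polymerase alpha-primase complex, which lays down the primer, held the only member that was higher. PRIM1, the catalytic primase subunit, fell from 12.9 and 14.9 to 4.82 and 5.10 in whole cells (log2 fold change -1.49, SE 0.12, adjusted p = 2.8e-05) and from 1.99 and 2.40 to 0.782 and 0.697 in the cytoplasm (-1.55). POLA1, the catalytic polymerase subunit, fell from 0.285 and 0.318 to 0.154 and 0.0844 in the cytoplasm (log2 fold change -1.32, SE 0.32) and by 1.10 in whole cells. POLA2 fell by 0.46 in whole cells, a call (adjusted p = 0.0424) that ended without the second EGFP siRNA library (adjusted p = 0.0591) or without either CHERP siRNA library (0.184 and 0.301), as well as with skipped exons only (0.133) and with 1 event per gene (0.346). In the cytoplasm it fell by 0.74. PRIM2, the regulatory primase subunit, went the other way in whole cells, from 6.12 and 7.37 to 8.41 and 10.1 (log2 fold change 0.46, SE 0.14, adjusted p = 0.0282). Without the second CHERP siRNA library its log2 fold change was 0.33 and the call ended (adjusted p = 0.282), as it did with a limma fit without a mean trend (0.116). Of its 6 events, 4 were above in the sense used here. PRIM2 has near-identical copies in the genome that can take its reads, so its values are uncertain.

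Of the 4 members from DNA polymerases epsilon and delta, POLE and POLD3 fell in both fractions, and POLE2 and POLD1 passed in neither. POLD3, an accessory subunit of polymerase delta, had log2 fold changes of -1.01 and -1.09. POLE, the catalytic subunit of polymerase epsilon, had -0.66 and -0.76, and its whole-cell call (adjusted p = 0.0131) ended without the first (adjusted p = 0.127) or the second (0.0821) CHERP siRNA library. With 1 event per gene its cytoplasmic adjusted p was 0.0645. POLE2 had -0.13 and -0.30 (adjusted p = 0.389 and 0.0524), and POLD1, the catalytic subunit of polymerase delta, had -0.38 (SE 0.24) and -0.02 (SE 0.10). In whole cells POLE2 was at -0.27 without the first EGFP siRNA library and POLD1 at -0.68 without the second.

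The sliding clamp gene and most clamp loader genes fell. PCNA, which tethers the polymerases to DNA, had whole-cell values of 25.6 and 27.3 against 9.27 and 9.88 (log2 fold change -1.46, SE 0.10, adjusted p = 1.46e-05) and cytoplasmic values of 5.88 and 5.94 against 2.27 and 1.97 (-1.48, SE 0.10, adjusted p = 5.92e-07). The replication factor C genes, which encode the clamp loader, ranged from -1.03 (RFC4) to -0.04 (RFC5) in whole cells and from -1.28 (RFC4) to 0.26 (RFC5) in the cytoplasm. RFC4 had 1.27 and 1.20 against 0.477 and 0.530 in the cytoplasm. RFC1, RFC2 and RFC4 fell in both fractions. RFC3 passed only in the cytoplasm (-0.66, limma adjusted p = 0.00547, against -0.32 and 0.0806 in whole cells). Without the second EGFP siRNA library its whole-cell log2 fold change was -0.37.

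Single-strand DNA is held open by replication protein A. RPA3, its smallest subunit, fell from 19.2 and 24.3 to 7.40 and 7.21 in whole cells (log2 fold change -1.56, SE 0.13, adjusted p = 3.14e-05) and from 4.20 and 4.08 to 1.69 and 1.56 in the cytoplasm (-1.34). RPA2 fell by 0.82 and 0.87 on the log2 scale. RPA1, the large subunit that makes most contacts with DNA, had -0.09 and -0.21 and did not pass in either fraction.

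For the last steps on the lagging strand, FEN1, the flap endonuclease, had no event. DNA2 and LIG1, the nuclease-helicase and the ligase that seals the nick, fell in both fractions, with log2 fold changes of -0.82 and -1.14 in whole cells and -1.07 and -0.96 in the cytoplasm. The cytoplasmic call of DNA2 (adjusted p = 0.0259) rested on 1 event of 13 to 43 reads, and it ended without the first EGFP siRNA library (adjusted p = 0.141) or the second CHERP siRNA library (0.154), and without the filter on reads (0.054).

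All 3 fork protection genes fell in both fractions. CLSPN, the adaptor that links a stalled fork to the checkpoint kinase CHK1, had whole-cell values of 4.91 and 6.13 against 1.36 and 1.42 (log2 fold change -1.97, SE 0.15, adjusted p = 2.54e-05). In the cytoplasm CLSPN had only 9 to 56 reads, with values of 0.313 and 0.292 against 0.0732 and 0.0521 (-2.12, SE 0.31, adjusted p = 0.000167). TIMELESS and TIPIN, which travel together with the fork, fell by 0.83 and 0.85 in whole cells and by 0.76 and 0.86 in the cytoplasm. The cytoplasmic call of TIMELESS (adjusted p = 0.0319) ended without the first EGFP siRNA library (adjusted p = 0.232) or the first CHERP siRNA library (0.154), and with a limma fit without a mean trend (0.097).

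CHAF1A and CHAF1B encode subunits of chromatin assembly factor 1, which places new histones behind the fork. CHAF1B had 0.275 and 0.188 against 0.0796 and 0.0653 in whole cells, from 14 to 53 reads (log2 fold change -1.53, SE 0.41, adjusted p = 0.0158), and without the second CHERP siRNA library the adjusted p was 0.0735. In the cytoplasm it had 0.517 and 0.382 against 0.129 and 0.194 (-1.43, SE 0.28). CHAF1A fell in the cytoplasm (-1.01, limma adjusted p = 0.000778) and did not pass in whole cells (-0.56, SE 0.30, limma adjusted p = 0.175). Without the second EGFP siRNA library its whole-cell log2 fold change was -0.91.

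Of the 40 members tested in both fractions, 29 were called lower in both. Over all genes tested, 18.4% were lower in whole cells and 23.6% in the cytoplasm, and the share lower in both was not counted. Another 3 members, CDT1, CHAF1A and RFC3, were lower by call in the cytoplasm only, CDT1 having no event in whole cells. Whether the siRNA effect differed between fractions was tested in a limma model over all 8 libraries, on the events present in both. Of 6505 genes, 0 (0%) passed the threshold, among them none of the 37 members, whose smallest adjusted p was 0.997, while 291 genes and 1 member had an unadjusted p under 0.05. That member was ORC4, with a log2 fold change of 0.20 in whole cells and -0.49 in the cytoplasm on these events (difference -0.69, SE 0.29, limma unadjusted p = 0.036). The largest difference in the other direction was that of MCM5 (0.58, SE 0.31), and RFC3 and CHAF1A had differences of -0.39 (SE 0.22) and -0.28 (SE 0.38). The standard errors of the members lay between 0.13 and 0.45, which limits the differences that could be detected.

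The authors' table of cytoplasmic expression gives a mean per siRNA and lists only genes that passed the authors' own threshold. It draws on the same cytoplasmic RNA and is therefore not a separate measurement. Of the 45 members, 35 were listed, and the authors' mean was lower with CHERP siRNA for 33 (94.3%), against 41.8% of the 6757 genes listed. The median ratio of the means was 0.520 for the members and 1.29 for all listed genes. The table adds genes without an event. FEN1 had an authors' mean of 4398 with EGFP siRNA and 2528 with CHERP siRNA, and GINS4, a GINS subunit, had 1004 and 582. CDT1 had 1667 and 793. POLD1 (1452 and 1757) and PRIM2 (511 and 788) were the only listed members with a higher mean. MCM6 (2843 and 761) had the lowest ratio, 0.268.

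**Figure D4:**
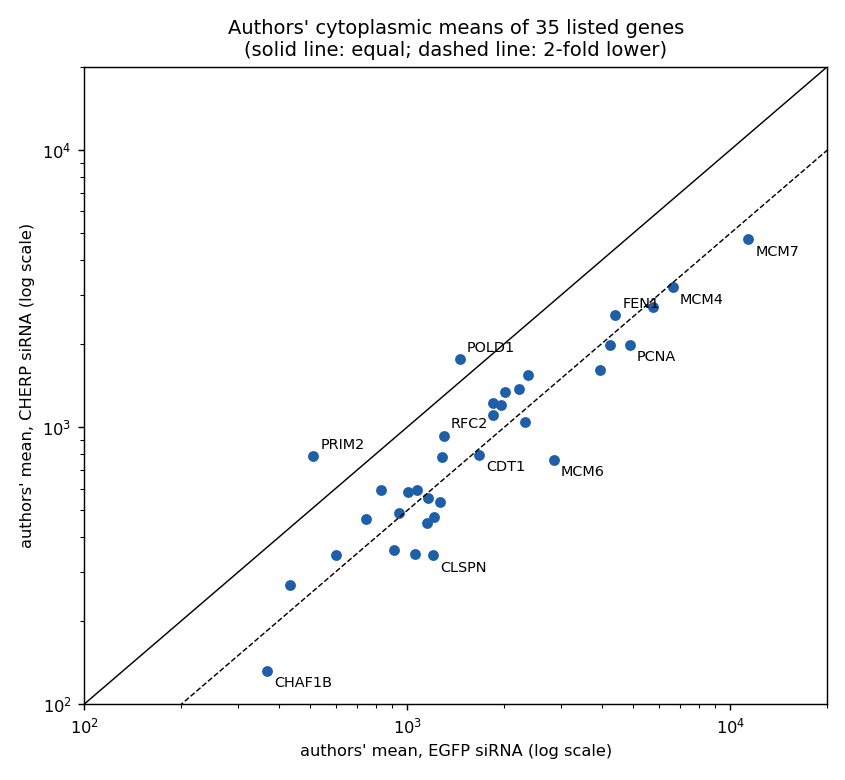
Authors' mean of cytoplasmic expression with EGFP siRNA (horizontal) and CHERP siRNA (vertical) for the 35 listed DNA replication genes, both on log scales. The solid line marks equal means and the dashed line a 2-fold decrease, and 33 points lie below the solid line, with POLD1 and PRIM2 above it.

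Other genes of the same process fell in most cases. These further lists, like the members, were chosen with earlier results of these data known. In a list of 44 further replication genes (initiation kinases, topoisomerases, nucleotide synthesis enzymes and histone chaperones), 32 of 40 tested were lower and 1 was higher in whole cells (median log2 fold change -0.84), and 27 of 31 were lower and 2 higher in the cytoplasm (-0.92). DUT and RRM2, enzymes that supply nucleotides, had the lowest log2 fold changes of this list in whole cells, -2.20 and -2.15. GMNN, which encodes the CDT1 inhibitor geminin, was the highest, at 1.20 in whole cells and 1.30 in the cytoplasm. POLD2, a subunit of polymerase delta, was also called higher in the cytoplasm (0.28) and did not pass in whole cells (0.22). Genes of other cell cycle states moved as well. All 18 G2/M genes tested in whole cells and all 15 in the cytoplasm were lower, with medians of -1.19 and -1.22. MKI67, a marker of cycling cells, was at -1.63 (SE 0.26) in whole cells and -2.90 (SE 0.48) in the cytoplasm. Its cytoplasmic value came from 1 event of 4 to 48 reads. Both CHERP siRNA libraries lay under the 0.01 added before the log2 there. Of the p53 target genes, 6 of 11 were higher and none was lower in whole cells (median 0.92). In the cytoplasm 4 of 10 were higher and 1 lower (0.44). Of all genes tested, 18.8% were higher and 18.4% lower in whole cells, and 24.6% and 23.6% in the cytoplasm. CDKN1A, the cyclin-dependent kinase inhibitor p21, was at 1.20 and 1.48. The part of these other changes in the decrease of the replication genes was not tested.

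Because so many members moved together, their promoters were searched for E2F-type motifs. The window was 250 bases before to 50 bases after the RefSeq start (GRCh38.p14), and the motifs were TTTCCCGC, TTTGGCGC, TTTCGCGC and TTTGCCGC on either strand. Of the 38 members with an entry, 18 (47.4%) held at least 1 match, against 908 of all 27305 promoters (3.33%). That set includes promoters of genes not tested here, and the share among tested genes was not counted. A match was present for 12 of 23 members that fell in whole cells and 5 of 12 that did not pass. In the cytoplasm it was present for 14 of 26 and 3 of 9. ORC1, PRIM1 and MCM10 fell in both fractions without a match, and ORC3, GINS3 and POLE2 held a match but passed in neither. Whether E2F factors took part in the decrease was not tested. DNA2, GINS4, MCM4, MCM5, POLD3, RPA2 and RPA3 had no entry. The 250 bases before the start are shown for MCM6, the largest decrease in whole cells, for PCNA, and for RPA1, which did not pass the test, with matches in capitals and the rest in lower case. MCM6 lies at chr2:135876444-135876693 (minus strand), PCNA at chr20:5126623-5126872 (minus strand) and RPA1 at chr17:1829755-1830004 (plus strand).
MCM6: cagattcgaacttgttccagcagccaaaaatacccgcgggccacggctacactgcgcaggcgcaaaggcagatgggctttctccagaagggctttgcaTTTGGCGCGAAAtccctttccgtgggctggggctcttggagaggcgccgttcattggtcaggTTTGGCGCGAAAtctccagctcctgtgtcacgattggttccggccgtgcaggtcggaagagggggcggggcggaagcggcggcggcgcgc
PCNA: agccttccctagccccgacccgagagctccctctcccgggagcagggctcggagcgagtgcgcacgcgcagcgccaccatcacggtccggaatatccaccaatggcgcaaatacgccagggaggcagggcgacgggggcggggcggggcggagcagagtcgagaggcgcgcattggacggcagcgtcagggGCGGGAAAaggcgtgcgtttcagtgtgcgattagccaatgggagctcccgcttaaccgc
RPA1: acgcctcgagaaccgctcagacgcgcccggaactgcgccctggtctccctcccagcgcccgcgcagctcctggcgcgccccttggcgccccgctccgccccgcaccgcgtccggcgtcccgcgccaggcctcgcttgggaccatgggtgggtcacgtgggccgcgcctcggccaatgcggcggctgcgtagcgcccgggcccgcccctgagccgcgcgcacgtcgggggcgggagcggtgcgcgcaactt
MCM6 held 4 matches in 2 stretches, each made of TTTGGCGC on the printed strand overlapping TTTCGCGC on the other. PCNA held 1 match to TTTCCCGC on the other strand, and RPA1 held none of these letters in the window.

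Few splicing events passed the test, among the members as over all genes. An inclusion level is the length-corrected share of reads on the longer form, and it was tested with a quasi-binomial model for each of the 5 event types. In whole cells 4 of the 478 member events passed, all of them among the 341 skipped exons. Over all genes, 1.12% of events and 0.893% of skipped exons passed there. Of the retained introns, 3.26% passed over all genes and 0 of 12 did among the members. In the cytoplasm 1 of 195 member events passed, a skipped exon out of 146, where 0.413% of all events and 0.254% of skipped exons did. An unadjusted p under 0.05 was reached by 18 whole-cell (3.77%) and 5 cytoplasmic (2.56%) member events, against 6.51% and 4.24% of all events.

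These calls depended on the model and on single libraries. The model gave the spread of an event's own libraries no weight beside the trend over events, and none of the 4 whole-cell calls and not the cytoplasmic one passed when that weight was set to 4 prior degrees of freedom or when limma was run on the log2 odds. Leaving out the second EGFP siRNA library or either CHERP siRNA library ended all 4 whole-cell calls, leaving out the first EGFP siRNA library ended that of PRIM2, and leaving out any library ended the cytoplasmic one. The values are therefore given as levels with their reads.

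The exons are shown with 20 intronic bases before them and 10 after them in lower case and the exon in capitals, from the hg19 sequence on the gene's strand, since the change concerns whether these bases enter the mRNA. For RFC2 the capitals end at the stop codon within the exon.
RPA2: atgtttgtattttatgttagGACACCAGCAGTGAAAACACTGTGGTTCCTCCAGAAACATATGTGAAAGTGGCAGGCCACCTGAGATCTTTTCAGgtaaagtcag
POLE2: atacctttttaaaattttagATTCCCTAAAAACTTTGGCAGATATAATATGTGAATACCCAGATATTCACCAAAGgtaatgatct
PRIM2: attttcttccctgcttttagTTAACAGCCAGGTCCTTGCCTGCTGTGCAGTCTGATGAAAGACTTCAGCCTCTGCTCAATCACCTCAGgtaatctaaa
RFC2: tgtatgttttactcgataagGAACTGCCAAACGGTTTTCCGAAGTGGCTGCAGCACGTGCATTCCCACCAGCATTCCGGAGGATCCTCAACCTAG
All 4 exons were preceded by ag and followed by gt, the usual splice site letters.

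The RPA2 exon (chr1:28224144-28224218, minus strand, 75 nt) is coding exon 5 of the 9 exons of transcript RPA2-203 in GENCODE 44, and its length is a multiple of 3. In whole cells 607 of 639 and 629 of 682 reads included it with EGFP siRNA, and 478 of 481 and 415 of 420 did with CHERP siRNA. The mean level was 0.906 ± 0.028 (SD, n = 2) against 0.986 ± 0.006, with both CHERP siRNA libraries above both EGFP siRNA libraries (quasi-binomial adjusted p = 0.00216 in the test over all skipped exons). It was also the cytoplasmic call, at 199 of 216 and 167 of 183 reads against 122 of 122 and 92 of 92 (level 0.845 ± 0.011 against 1, adjusted p = 0.0378 in the same kind of test). Skipping reads numbered 0 of 214 there, which allows a share of up to 1.4% of reads and covers counting error only. This limit is not corrected for length, unlike the level. In these libraries the form without this exon was the rarer form in both groups and was rarer still with CHERP siRNA, in both fractions. Whole-cell RNA includes that of the cytoplasm.

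The POLE2 exon (chr14:50121502-50121556, minus strand, 55 nt) is coding exon 13 of the 19 exons of POLE2-201, and skipping it would shift the reading frame, since its length leaves a remainder of 1 when divided by 3. It was included in 235 of 276 and 294 of 346 reads with EGFP siRNA and in 309 of 326 and 278 of 289 with CHERP siRNA, with mean levels of 0.805 ± 0.002 and 0.939 ± 0.013 (SD, n = 2, quasi-binomial adjusted p = 0.0137 over all skipped exons). POLE2 abundance itself did not pass the test in either fraction.

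The PRIM2 exon (chr6:57372288-57372355, plus strand, 68 nt) is coding exon 8 of the 17 exons of PRIM2-207. It was included in 189 of 199 and 144 of 151 reads with EGFP siRNA and in all 303 and 316 with CHERP siRNA (level 0.930 ± 0.004 against 1, SD, n = 2, quasi-binomial adjusted p = 0.0300 over all skipped exons). The 0 skipping reads of 619 allow a share of up to 0.485% of reads, not corrected for length. The copies of PRIM2 named above bear on these reads too.

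The RFC2 exon (chr7:73648105-73648224, minus strand, 120 nt) is exon 6 of 7 in RFC2-212, and it is absent from the other 12 annotated transcripts of the gene. Its first 72 bases are coding and are followed by a stop codon. It was a minor form, in 25 of 246 and 37 of 263 reads with EGFP siRNA and in 2 of 143 and 3 of 159 with CHERP siRNA, a mean level of 0.070 ± 0.017 against 0.009 ± 0.002 (SD, n = 2, quasi-binomial adjusted p = 0.0342 over all skipped exons).

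**Figure D5:**
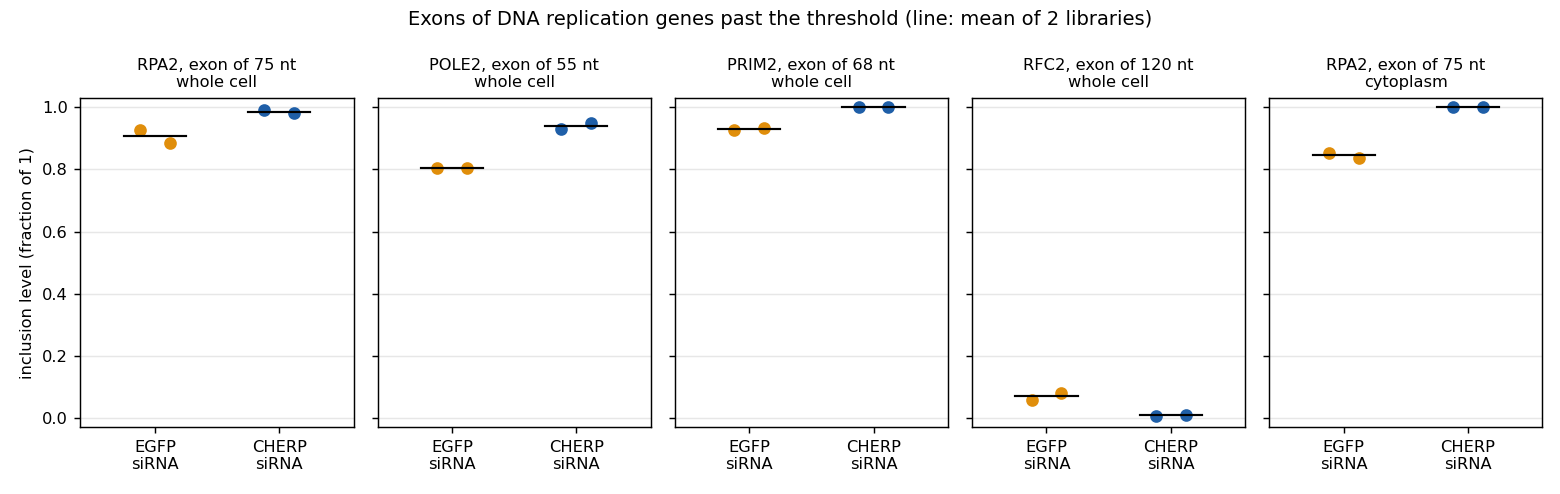
Inclusion level (0 to 1) of the member exons past the threshold, for each library (points, orange EGFP siRNA and blue CHERP siRNA) with the mean of 2 libraries (line), from whole cells in the first 4 panels and the cytoplasm in the last. Inclusion is higher with CHERP siRNA for RPA2, POLE2 and PRIM2 and lower for RFC2, whose level is under 0.1 in every library.

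Other member events missed the threshold. An exon of GINS3 went from levels of 0.902 and 0.928 to 0.734 and 0.688 in whole cells (quasi-binomial adjusted p = 0.186). A retained intron of MCM7 went from 0.060 and 0.071 to 0.035 and 0.027 (adjusted p = 0.154), the lowest p among the 12 retained introns of members. A second PRIM2 exon had levels of 0.857 and 0.823 with EGFP siRNA and 1 in both CHERP siRNA libraries (adjusted p = 0.103).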

How the data were processed

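RNA-seq reads of U2OS cells had been mapped by the authors to hg19 with STAR 2.5.2b, per their notes, and alternative splicing had been counted with rMATS on GENCODE annotation. The deposited rMATS tables hold, for each event, read counts on target and junctions of the inclusion and skipping form, with the 2 libraries of a group joined in 1 cell and without a replicate number, and effective lengths. The deposited cytoplasmic expression table, made with RSEM 1.2.25, gives a normalized signal as the authors' mean per siRNA. Its columns do not name the siRNA. The first was taken as CHERP siRNA because 3934 rows are higher there, the number of increased genes the study gives. The authors' own p-values, FDR, fold changes, inclusion level differences and posterior probabilities in these tables were not used, nor were the 20 columns of inclusion levels.

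Abundance was computed as described above, for genes whose event reads averaged 20 or more over the libraries, and fitted per fraction with limma 3.58.1 in R 4.3.3 (eBayes with a mean trend), with Benjamini-Hochberg adjustment over all genes of the fraction. Inclusion was tested with a quasi-binomial model whose dispersion followed a trend on reads and was at least 1. The tests were also run on simulated data, drawn with the same spread for all genes and the same spread for all events. Such data do not show how the tests behave at the spread of the real libraries. Whole-cell and cytoplasmic tables had different effective lengths and were fitted apart, and the fractions were compared only on shared events. Replicate libraries differed by more than sampling noise, so none was counted as a repeat. In whole cells the chi-square per degree of freedom was 9.58 for the EGFP siRNA pair and 3.29 for the CHERP siRNA pair. In the cytoplasm it was 1.65 and 1.63. The whole-cell EGFP siRNA libraries thus differed most from each other by this measure. Annotation came from GENCODE 44 on GRCh37 and promoters from RefSeq. Members and lists were chosen with earlier results of these data known. All 45 members could be named, with values per library for CHERP, for the 15 members with the largest change past the threshold per fraction and direction, and for events past the threshold. Pseudocount, scaling, filter, event types, variance model and each library in turn were varied.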

Additional observations from a re-analysis of the deposited data

Results flagged for a closer look

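RFC5, a small subunit of the clamp loader, drew attention because its libraries lay in opposite directions in the 2 fractions. Its whole-cell events of at least 20 reads split, with 3 of 6 below and 3 above in the sense used earlier. Of its 5 such events in the cytoplasm, 4 were above. In whole cells the EGFP siRNA libraries had 5.19 and 5.07 reads per base, and the CHERP siRNA libraries were both lower, at 4.94 and 5.03 (log2 fold change -0.043, SE 0.12). In the cytoplasm they were 3.12 and 2.68 against 3.49 and 3.45, both higher (0.26, SE 0.11, adjusted p = 0.0573). Neither passed the threshold. The cytoplasmic log2 fold change was 0.37 without the first EGFP siRNA library. On the events present in both fractions the log2 fold changes were 0.05 and 0.33, and their difference of 0.27 (SE 0.18) did not pass the limma interaction test (adjusted p = 0.997).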

How the results depend on the processing

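The number of members called lower stayed within 1.5 times of 29 in whole cells (28 to 30, and 26 to 33 when each library was left out in turn) and of 32 in the cytoplasm (24 to 35, and 30 to 32). The count of 24 came from a filter of 100 reads, which fewer members passed. The number called higher in whole cells was 0 for limma without a mean trend and 0 to 2 with a library left out. In the cytoplasm it was 1 without a filter on reads and 1 with skipped exons only, and 0 to 1 with a library left out, the member being RFC5 in each case. The interaction test called 0 members under each alternative. The number of member splicing events called, 4 in whole cells and 1 in the cytoplasm, was 0 and 0 with 4 prior degrees of freedom, 0 and 0 with limma on the log2 odds, and 6 and 2 for a dispersion without a trend. With a library left out it was 0 to 4 and 0 to 0. The 4 events called without the first EGFP siRNA library were not the same 4, since PRIM2 was lost and another event passed.

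With all libraries kept, CDC6 missed the threshold in whole cells but passed it under at least 1 alternative. So did GINS3, POLE2, RFC5 and RPA1 in the cytoplasm. Some members that did not pass the test changed sign. With skipped exons only, POLD1 was at 0.18 in whole cells and 0.015 in the cytoplasm. With 1 event per gene, ORC3 was at 0.052 in whole cells and POLD1 at 0.062 in the cytoplasm. With a library left out, ORC4 ranged from -0.25 to 0.11 and ORC3 from -0.28 to 0.12 in whole cells, and in the cytoplasm ORC3 ranged from -0.11 to 0.52, ORC2 from -0.11 to 0.0061, ORC5 from -0.41 to 0.16 and POLD1 from -0.041 to 0.0028. The causes were not tested. No paired analysis was possible because the joined cells carry no replicate numbers. In the cytoplasm CLSPN, POLA1, CDT1 and DNA2 had at most 56 reads per library, which limits the precision of their values.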
